A study of Mus musculus with 3 samples.

Results

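Among the cells dissociated from the mouse costal diaphragm was a small macrophage population that carried *Alox15* (12/15-lipoxygenase, which oxygenates polyunsaturated fatty acids) together with *Prg4* (proteoglycan 4, or lubricin, a secreted lubricating mucin). It was taken as the barcodes with at least 1 unique molecular identifier (UMI) of *Alox15*, at least 5 of *Prg4*, at least 5 of *Lyz2* (lysozyme M of myeloid cells) and 0 of *Pdgfra*, the receptor that marks fibro-adipogenic progenitors (FAPs). These thresholds selected 72 of 12275 barcodes. All 72 held UMIs of at least 3 of 6 general macrophage genes, among them *Csf1r*, *Adgre1*, *Cd68*, *Fcgr1* and *C1qa*, and they are called *Alox15 Prg4* cells here.

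The data were 10x Genomics 3′ single-cell counts from mononuclear isolates of male mice, 1 library per group, each pooled from 2 animals. WT CD mice were C57BL/6J on control diet, WT HFD mice were C57BL/6J on a diet with 45% of energy from lipid, and KO HFD mice lacked *Thbs1* in the whole body (B6.129S2-Thbs1tm1Hyn/J) and received the same high-fat diet. Mice ate standard chow to 2 months of age and the study diets for 6 months, and all isolates were prepared on 1 day after collagenase digestion and flow sorting against DAPI to leave out dead cells. The libraries held 4132, 3774 and 4369 barcodes in WT CD, WT HFD and KO HFD, with medians of 7632.5, 8041.5 and 7554 UMIs. With 1 library per group no difference between diets or genotypes could be tested, so such values carry exact 95% intervals that cover counting error only.

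Macrophages of the peritoneal and pleural cavities, which border the diaphragm on either side, are classed as large and small. Large cavity macrophages are long-lived cells governed by the transcription factor GATA6 downstream of retinoic acid; they carry high F4/80 (*Adgre1*), CD11b (*Itgam*) and ICAM2 and little MHC class II, and mouse peritoneal macrophages are known for 12/15-lipoxygenase and for clotting factor V. Small cavity macrophages derive from monocytes and carry CCR2, IRF4, CD226 and MHC class II. Resident macrophages within muscle and connective tissue carry instead FOLR2, CD163 and LYVE1 or high MHC class II.

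The *Alox15 Prg4* cells made up a larger share of the WT HFD library than of either other library. They were 7 of 4132 barcodes in WT CD (0.169%, interval 0.0681% to 0.349%), 51 of 3774 in WT HFD (1.35%, 1.01% to 1.77%) and 14 of 4369 in KO HFD (0.320%, 0.175% to 0.537%). The WT HFD interval lay above both others, and the WT CD and KO HFD intervals overlapped. As a share of macrophages, counting these cells with the other macrophages described below, they were 2.92% of 240 cells in WT CD, 12.2% of 419 in WT HFD and 3.0% of 467 in KO HFD. Other macrophages followed a different order, at 5.64%, 9.75% and 10.4% of barcodes.

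Cells of the mesothelium, the lining of the body cavities, moved in the same order as the *Alox15 Prg4* cells. Barcodes with UMIs of all 3 of *Msln*, *Upk3b* and *Lrrn4* made up 0.774% of WT CD (32 cells), 1.85% of WT HFD (70 cells) and 1.03% of KO HFD (45 cells). How much of the diaphragm's serosal surface and cavity content entered each isolate cannot be told apart from diet and genotype in these libraries. The *Alox15 Prg4* cells were themselves almost free of mesothelial RNA: of 10 mesothelial markers, *Msln*, *Upk3b*, *Lrrn4*, *Wt1* and 5 others had 0 UMIs in all 72 cells, and *Nkain4* had 1. B cells, counted as barcodes with both *Cd79a* and *Ms4a1*, had another order, at 9.0% of WT CD, 4.32% of WT HFD and 2.11% of KO HFD.

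**Figure D1:**
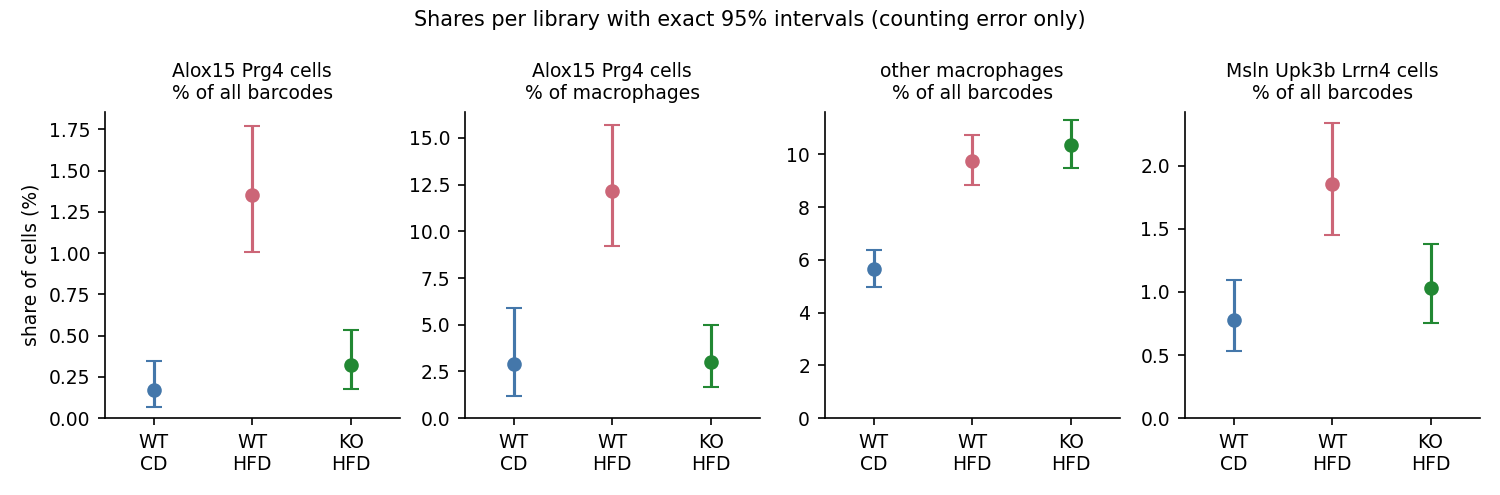
Shares of each library in percent (vertical axes, each from 0) for the *Alox15 Prg4* cells over all barcodes and over macrophages, for other macrophages and for barcodes with UMIs of *Msln*, *Upk3b* and *Lrrn4*. Points are the shares and bars the exact 95% intervals, for counting error only. WT HFD stands highest for the *Alox15 Prg4* cells and the mesothelial cells (1.35%, 12.2% and 1.85%), and other macrophages are at 9.75% in WT HFD and 10.4% in KO HFD.

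The thresholds fell in a sparse region of the data, shown here as a description because they chose the cells. The lowest *Prg4* count among the 72 cells was 8 UMIs, the next was 32 and the highest 204. *Alox15* ran from 3 to 82 UMIs with a median of 30, and *Lyz2* from 8 to 1683 with a median of 648. Just outside the limits were 1 cell with 1 to 4 UMIs of *Prg4* and the other limits met, 3 cells with no *Alox15*, 3 WT HFD cells with *Pdgfra* UMIs and 1 cell with under 5 *Lyz2* UMIs. A further 10 cells met the limits but had no *Prg4* UMI, and 9 of them carried at least 3 of the 6 macrophage genes. These were 5 WT CD, 3 WT HFD and 2 KO HFD cells, so that with no limit on *Prg4*, an alternative chosen after the data were seen, the counts were 12, 55 and 16 cells (0.290%, 1.46% and 0.366% of barcodes).

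The 72 cells kept together when they were grouped by other genes. In a Leiden clustering of all barcodes on 1997 variable genes, with *Alox15*, *Prg4*, *Lyz2* and *Pdgfra* left out, every 1 of the 72 cells fell in the same macrophage-like cluster of 78 cells, out of 27 clusters. For the median cell, 100% of its 14 nearest neighbours were also *Alox15 Prg4* cells, and the lowest share was 42.9%. None was called a doublet by Scrublet, which called 151 barcodes (1.23%), and none carried any of the 16 barcode sequences that occurred in more than 1 library. The cells were deeper than other macrophages, with a median of 14190.5 UMIs against 9077.

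Some of these cells held many UMIs of genes typical of other cells. Among the 7 WT CD cells, 1 held 97% of the UMIs of *H2-Eb1*, a chain of MHC class II. Among the 14 KO HFD cells, 1 held all 119 UMIs of the lymphatic chemokine *Ccl21a* and 1 held 370 of 371 UMIs of *Retnla*, a secreted protein of other macrophages. Cells with 10 or more UMIs of any of 4 genes, among them *Ccl21a*, *H2-Ab1* and *Retnla*, numbered 3 in WT CD, 0 in WT HFD and 3 in KO HFD, a limit chosen after the values were seen. Since high values of these genes chose the cells, a lower level of *Retnla* or of MHC class II genes once the cells are left out follows from that choice and is no test. Lower levels of other genes typical of the same cell types may follow from it too and are no test either. WT HFD cells had UMIs of such genes below that limit: 6 of 51 had *Dcn*, a matrix proteoglycan of FAPs, and 2 had *Cd79a* of B cells. Without these 6 cells the shares were 0.0968%, 1.35% and 0.252% of barcodes, in the same order. Also among the WT CD cells, 1 had 16.9% mitochondrial UMIs and the lowest depth was 3304 UMIs.

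*Alox15*, which the rule required, was found mostly in these cells. Its level, given throughout as counts per 1000000 UMIs after adding up a library's cells of 1 class (CPM), was 1717 in WT CD, 2133 in WT HFD and 2374 in KO HFD. In other macrophages the same sums were 15.7, 2.39 and 0.370 CPM. The 72 cells held 91.2% of all *Alox15* UMIs of the series, and 10 of 1054 other macrophages (0.949%) had a UMI of it. Mesothelial-like cells held another 2.59%, and so did 56 cells of macrophage-like clusters that were in neither class. Only 5.36% of those 56 cells had an *Alox15* UMI, all of them in WT HFD. The gene lies on chromosome 11 from 70344152 to 70352031 on the minus strand (GRCm38).

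*Prg4* (chromosome 1, 150449412 to 150466165, minus strand) was instead shared with stromal cells. The *Alox15 Prg4* cells had 3359, 6201 and 5114 CPM in WT CD, WT HFD and KO HFD, against 0.696, 35.3 and 3.51 CPM in other macrophages. FAP-like cells had 323 CPM and tenocyte-like cells 1690.2 CPM over the 3 libraries. The 56 cells of macrophage-like clusters in neither class had 756 CPM, but only 19.6% of them had a UMI. Their level was 0 CPM in WT CD, 1457 in WT HFD and 84.1 in KO HFD. Because FAP-like cells were 6659 of the barcodes, they held 68.4% of all *Prg4* UMIs and the 72 cells 22.1%. The share of cells with a UMI of *Prg4* differed among the other classes. It was 0% in Schwann-, neutrophil-, erythroid- and mast cell-like cells, 0.0818% in MuSC-like cells (muscle stem cells), 3.51% in T or NK cell-like cells, 8.31% in myofiber-like cells, 11% in endothelial-like cells and 37.2% in mesothelial-like cells.

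*Thbs1*, the gene disrupted in the KO mice, encodes thrombospondin 1, a secreted glycoprotein that binds matrix and cell-surface receptors and can activate latent TGF-β. Its level in the *Alox15 Prg4* cells was 1069 CPM in WT CD, 1630.1 in WT HFD and 835 in KO HFD, against 83.5, 55.7 and 67.8 in other macrophages. All 72 cells had a UMI of it, compared with 17.4% of other macrophages. Over all 3 libraries these cells (1426 CPM) were second to neutrophil-like cells (2654 CPM), and FAP-like cells had 218 CPM. Reads of a 3′ library come from the end of the transcript and still counted *Thbs1* RNA in the KO HFD library, at 231 CPM in FAP-like cells beside 232 in WT HFD, so the count does not check the deletion.

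**Figure D2:**
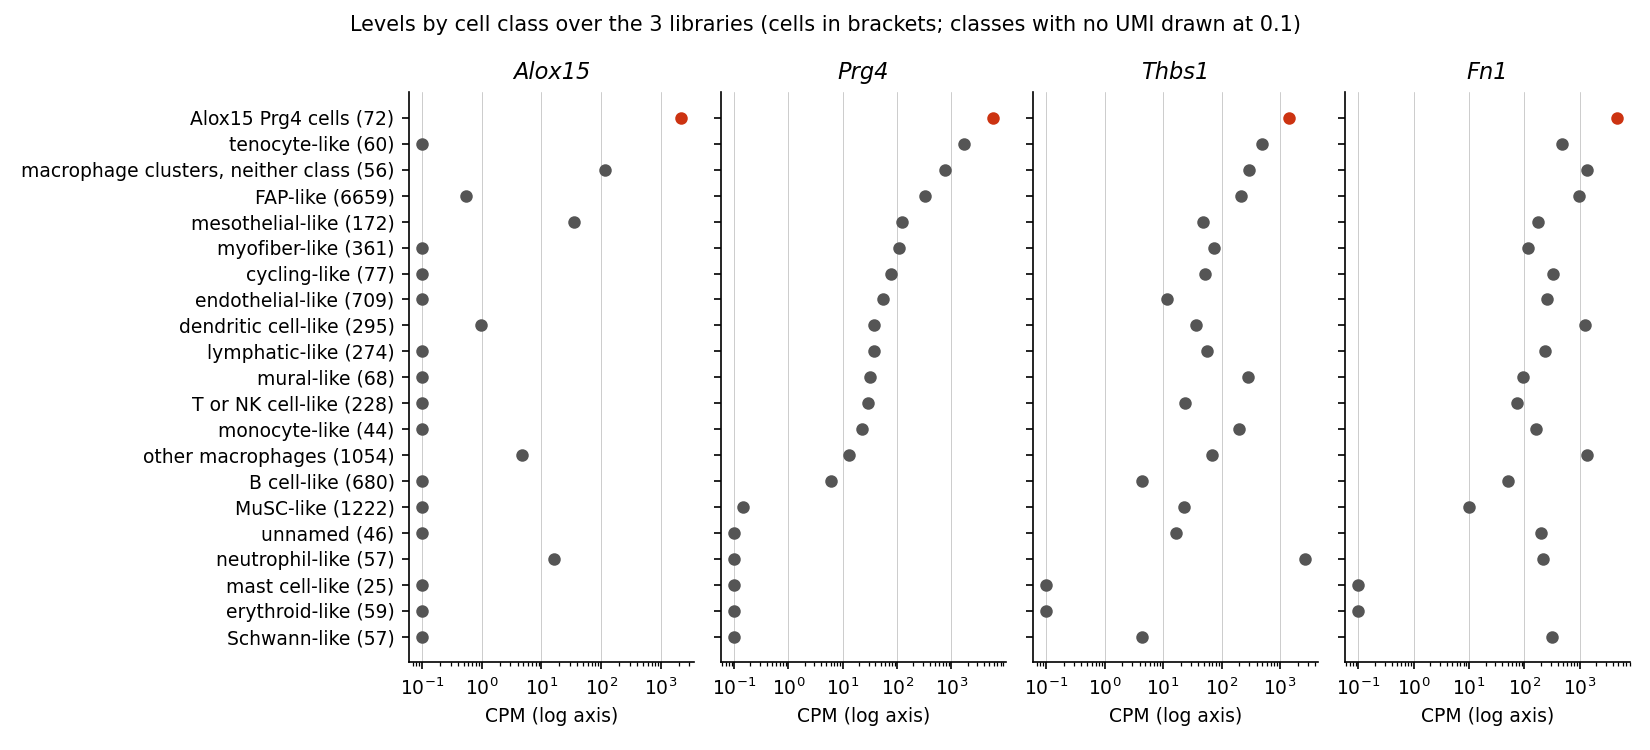
Level of *Alox15*, *Prg4*, *Thbs1* and *Fn1* in each cell class (rows, with the number of cells in brackets), as CPM of UMIs summed over the 3 libraries on a log axis; classes with no UMI are drawn at 0.1. The red points are the 72 *Alox15 Prg4* cells, which stand at 2145 CPM of *Alox15* and 5745 CPM of *Prg4*, genes that chose them, and below neutrophil-like cells for *Thbs1*.

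The rest of the profile was compared with 1054 other macrophages (233, 368 and 453 per library), which met the same *Lyz2* and *Pdgfra* limits and carried at least 3 of the 6 macrophage genes. In the clustering 704 of them fell in the largest macrophage-like cluster. Others fell in dendritic cell-like (206), monocyte-like (79), cycling-like (33) and B cell-like (18 and 6) clusters. UMIs were summed per library and class, and edgeR's quasi-likelihood test, paired within the library, was run on 8438 genes. At an adjusted p of at most 0.05 and a change of at least 2-fold, 469 genes were higher in the *Alox15 Prg4* cells (5.56%) and 656 were lower (7.77%). Both counts depended on the libraries used, with 264 and 293 genes without WT HFD and 338 and 408 without KO HFD. Another tool, DESeq2, called 338 higher and 311 lower on the same sums. The median log2 fold change of all genes tested was −0.11. These counts include *Lyz2*, *Adgre1* and *Fcgr1*; genes that set either class are otherwise given without a test, and *Saa3* and *Fn1* had been named as markers from these same data, so their values are descriptions too.

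Of 10 general macrophage genes tested outside those that set the classes, 1, *Itgam*, was higher (against 5.56% of all genes) and 0 were lower (against 7.77%). The signalling adaptors *Tyrobp* and *Fcer1g* and the protease *Ctss* did not reach 2-fold (log2 fold changes 0.72, −0.31 and −0.23). *Aif1*, the actin-binding protein IBA1, was at 14.8 against 208 CPM and did not pass (−3.28 ± 1.39, adjusted p = 0.368). Its log2 fold change was −4.67 without the 6 cells described above. Those cells were picked partly for genes of other macrophages, so that value carries no test.

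Genes of large cavity macrophages were higher almost throughout. Leaving aside *Saa3* and *Fn1*, of 22 listed genes tested outside those that set the classes, 19 were higher (against 5.56% of all genes), 1 was lower and 2 did not pass, with a median log2 fold change of 6.34. Members of this list had been chosen with results of these data known. The lower gene was *Lyz1*, a lysozyme, which lost its call without the 6 cells (log2 fold change −0.89, adjusted p = 0.0636), when *Slpi* was called higher. *Apoc1* was too low to test, with 2 UMIs in the 72 cells.

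*Gata6*, the factor that governs large cavity macrophages, was at 32.4 CPM in WT CD, 75.8 in WT HFD and 98.5 in KO HFD, and at 1.74, 1.59 and 0.185 CPM in other macrophages. It had a log2 fold change of 6.28 ± 0.47 (SE; adjusted p = 9.94e-38), with UMIs in 1 of 7, 27 of 51 and 10 of 14 cells. Other macrophages had a UMI in 0.664% of cells, and mesothelial-like cells, which also use the gene, had 231 CPM. FAP-like cells had 46.8 CPM, with a UMI in 25.8% of cells. They held 79.3% of all *Gata6* UMIs of the series, and the 72 cells held 2.36%. In WT CD the FAP-like cells, at 53.1 CPM, stood above the *Alox15 Prg4* cells, whose 3 UMIs were all in 1 cell. *Rarb*, a retinoic acid receptor, was higher as well (26.8 against 10.5 CPM; log2 fold change 1.84 ± 0.47, adjusted p = 0.00106). Elsewhere in the retinoid pathway *Aldh1a2*, which makes retinoic acid, was lower (9.23 against 77.7 CPM), and *Rara*, *Rarg*, *Rxra* and *Rxrb* did not pass.

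Transcripts of surface proteins used to define large cavity macrophages are given next. *Icam2* was at 518, 905 and 1088 CPM in the 3 libraries and at 11.1, 13.8 and 7.39 in other macrophages (log2 fold change 6.45 ± 0.29, adjusted p = 1.91e-101). For *Itgam*, the integrin chain of CD11b, the levels were 454, 711 and 943 CPM against 189, 170.4 and 170.4 (log2 fold change 2.13 ± 0.24). *Adgre1*, which set the comparison class and is given as a description, was at 259, 392 and 418 CPM against 149.6, 194 and 157. In each of the 3 libraries all 3 of these genes stood above the other macrophages. The phosphatidylserine receptor *Timd4* and the complement receptor *Vsig4* were higher too (log2 fold changes 2.82 and 3.67), but *Timd4* had UMIs in 48 of 72 cells and *Vsig4* in 1 of 7, 10 of 51 and 3 of 14.

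**Figure D3:**
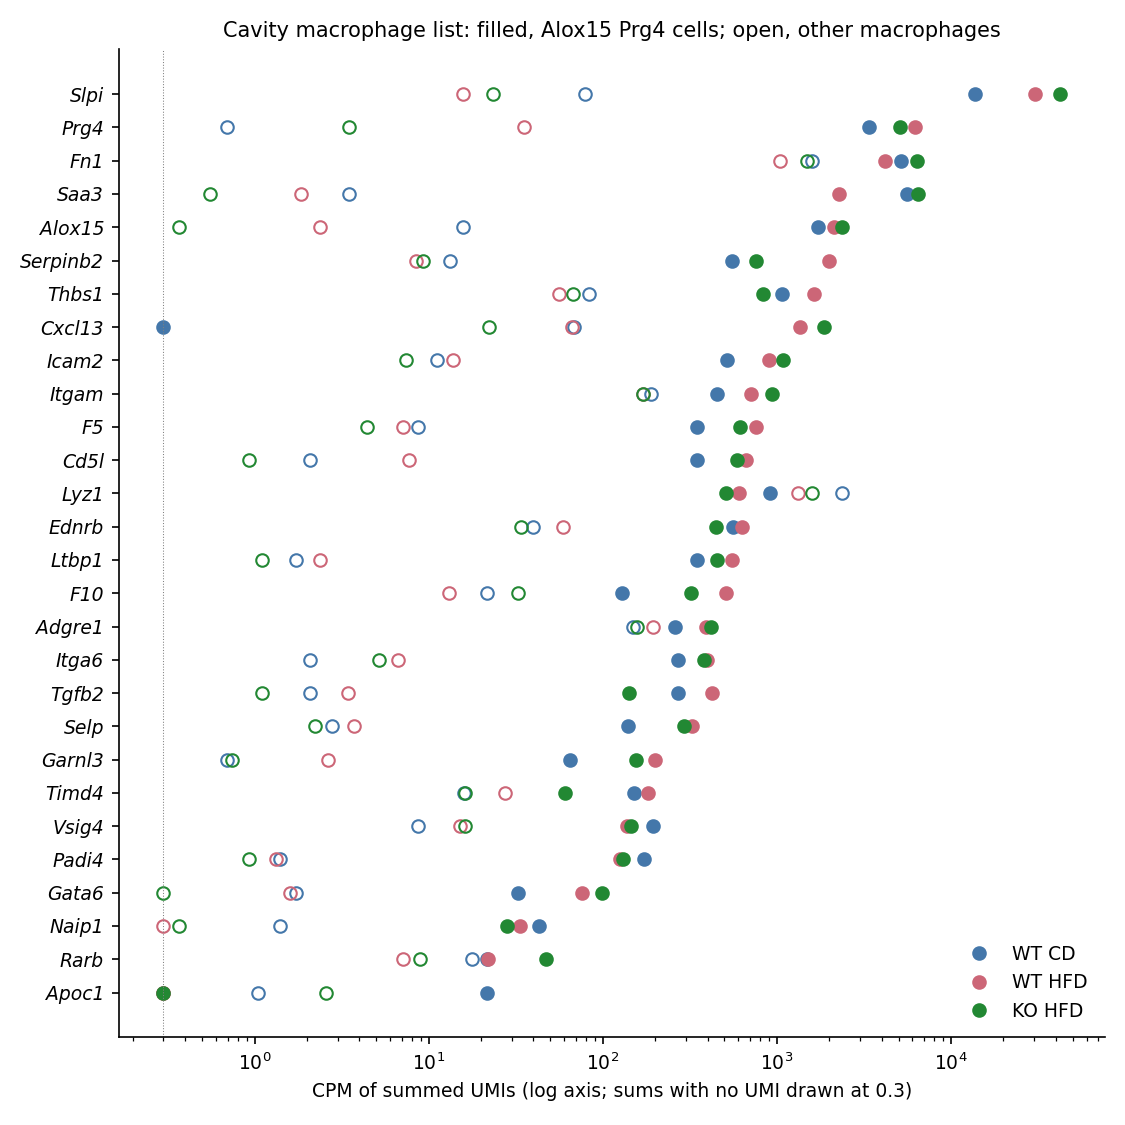
CPM of genes of the cavity macrophage list on a log axis, 1 row per gene; filled points are the *Alox15 Prg4* cells and open points the other macrophages, coloured by library, and sums with no UMI are drawn at 0.3. Filled points lie right of open points in all 3 libraries for *Gata6*, *Icam2*, *Cd5l* and *F5*; *Lyz1* has the opposite order, and *Cxcl13* has no UMI in the WT CD cells.

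*Saa3*, an acute phase serum amyloid that macrophages secrete, had the largest fitted log2 fold change of the genes named, 11.43. The *Alox15 Prg4* cells had 5617 CPM in WT CD, 2263 in WT HFD and 6460.2 in KO HFD, and other macrophages 3.48, 1.86 and 0.554. Single cells spread widely, from 0 to 105 UMIs per 10000 in WT HFD with a median of 8.61. One WT CD cell held 43.5% of that library's *Saa3* UMIs and 1 KO HFD cell 35.4%. *Cd5l*, a secreted scavenger protein of resident macrophages, was steadier, with UMIs in all 72 cells, 346, 665 and 591 CPM against 2.09, 7.70 and 0.924, and a log2 fold change of 7.62 ± 0.33 (adjusted p = 1.10e-102).

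The promoters of *Saa3*, *Cd5l* and *Ltbp1* are printed because these had the largest log2 fold changes among higher cavity list genes with a matched RefSeq promoter. *Gata6* played no part in that choice. Each is the 300 bases around the RefSeq transcription start in GRCm38.p6, at chr7:46715627-46715926 on the minus strand, chr3:87357631-87357930 on the plus strand and chr17:75005279-75005578 on the plus strand. Capitals mark matches on either strand to the letters of the GATA motif, which are AGATAA in its basic form, AGATAG when it ends in G, TGATAA when it starts with T and otherwise TGATAG, of which *Saa3* had 1, *Cd5l* 3 and *Ltbp1* 0.
Saa3: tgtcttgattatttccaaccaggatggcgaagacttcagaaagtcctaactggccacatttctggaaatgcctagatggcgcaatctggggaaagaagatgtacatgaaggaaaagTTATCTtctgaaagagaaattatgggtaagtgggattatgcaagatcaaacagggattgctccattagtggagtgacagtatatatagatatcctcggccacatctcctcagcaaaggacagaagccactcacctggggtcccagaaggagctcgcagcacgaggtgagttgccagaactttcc
Cd5l: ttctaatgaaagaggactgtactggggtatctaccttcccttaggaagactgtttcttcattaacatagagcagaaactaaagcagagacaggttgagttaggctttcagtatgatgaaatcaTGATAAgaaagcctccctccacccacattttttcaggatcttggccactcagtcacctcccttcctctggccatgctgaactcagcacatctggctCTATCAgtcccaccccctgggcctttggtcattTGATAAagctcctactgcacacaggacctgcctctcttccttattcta
Ltbp1: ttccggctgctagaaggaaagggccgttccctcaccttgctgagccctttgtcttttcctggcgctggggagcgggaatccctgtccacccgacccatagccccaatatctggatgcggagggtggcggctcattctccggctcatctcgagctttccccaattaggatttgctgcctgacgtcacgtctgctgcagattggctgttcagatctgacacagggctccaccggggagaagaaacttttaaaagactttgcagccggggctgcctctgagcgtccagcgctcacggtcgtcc
Over the 19 RefSeq promoters matched to 16 of the 21 cavity list genes that were higher when *Saa3* and *Fn1* are counted, 5 (26.3%) held such letters. That was near the share for all 32851 promoters (29.8%), for those of genes tested (18.2%) and for those of genes that were higher (21.7%).

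Of 12 clotting and fibrinolysis genes tested, 7 were higher (against 5.56% of all genes), 0 were lower and 5 did not pass, with a median log2 fold change of 3.45. *F5*, factor V, a cofactor of thrombin formation, was at 346, 762 and 609.9 CPM against 8.70, 7.17 and 4.44 (log2 fold change 6.61 ± 0.31, adjusted p = 6.65e-96), and 71 of 72 cells had a UMI. *F10*, factor X, was at 129.6, 512 and 319 CPM against 21.6, 13 and 32.5. WT HFD was the highest library for both genes. *F7* (log2 fold change 3.55) and *F3*, tissue factor (3.69), were higher as well. *Serpinb2*, an inhibitor of plasminogen activators, reached 551, 1978 and 755 CPM against 13.2, 8.49 and 9.24 (log2 fold change 6.72 ± 0.34). P-selectin, *Selp*, an adhesion receptor best known from platelets and endothelium, was at 140.4, 325 and 291 CPM against 2.78, 3.72 and 2.22 (6.66 ± 0.34). *F13a1*, *Tfpi*, *Thbd*, *Plau* and *Plaur* did not pass. The platelet markers *Ppbp*, *Itga2b*, *Gp9* and *Gp1bb* had 0 UMIs in the 72 cells. Of 5 endothelial markers *Flt1* and *Ptprb* had 0, and *Pecam1*, *Cdh5* and *Kdr* had 3, 4 and 4 UMIs. The 5 had a summed level of 0, 2.57 and 42.2 CPM in WT CD, WT HFD and KO HFD. *Selp* UMIs were in 95.8% of the 72 cells, and endothelial-like cells had 0.345 CPM of *Selp* over the 3 libraries. The part of endothelial RNA in the *Selp* result was not tested.

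Matrix and adhesion genes other than *Fn1* were higher in 9 of 15 cases (against 5.56% of all genes) and lower in 2 (against 7.77%). *Fn1* encodes fibronectin and stood at 5142, 4170.3 and 6380.4 CPM against 1584, 1048 and 1492 in other macrophages. FAP-like cells had 956 CPM of it. *Ltbp1*, which stores latent TGF-β in the matrix, and *Tgfb2*, a TGF-β ligand, had log2 fold changes of 8.22 ± 0.34 and 7.12 ± 0.35. *Tgfb2* was at 270.04, 426 and 141 CPM against 2.09, 3.45 and 1.11, and *Ltbp1* at 346, 555 and 450.4 against 1.74, 2.39 and 1.11. The ligand *Tgfb1* was at 125 CPM against 203 and did not pass. *Ecm1*, a secreted matrix glycoprotein, and the integrin chains *Itga6*, *Itgb1* and *Itgb2* were also higher. *Cd44*, the hyaluronan receptor, was lower, as was *Itgal*, the LFA-1 chain, with 0 UMIs in the 72 cells and at least 11.1-fold lower against a floor of 3 UMIs over these cells.

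Of 13 lipid mediator genes tested, 5 were higher (against 5.56% of all genes), 3 were lower (against 7.77%) and 5 did not pass. *Ptgis*, prostacyclin synthase, was at 302, 764 and 609.9 CPM against 5.57, 9.82 and 0.739 (log2 fold change 7.10 ± 0.66, adjusted p = 0.000117). *Ltc4s*, leukotriene C4 synthase, was at 1134, 678 and 1112 CPM against 88.4, 111 and 71.3 (3.56 ± 0.25). The cyclooxygenase *Ptgs1* was higher (2.02 ± 0.29), and so was *Ptgs2* (2.93 ± 0.45), although all 38 of its UMIs in WT CD were in 1 cell. *Ptgs2* was not called without the 6 cells described above (log2 fold change 2.27, adjusted p = 0.474), and *Ptges*, a prostaglandin E synthase that was otherwise higher (5.38), was too low to test. Lower genes were *Hpgds*, prostaglandin D synthase, with 0 UMIs and at least 11.9-fold lower, *Hpgd*, which inactivates prostaglandins, and *Pla2g7*, which degrades platelet-activating factor. *Alox5* and *Alox5ap*, which start leukotriene synthesis, were at 87.7 against 43.2 and 1058 against 669 CPM, with fitted log2 fold changes of 0.93 and 0.65 (adjusted p = 0.0198 and 0.0259) below the 2-fold limit.

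Among acute phase and antimicrobial genes other than *Saa3*, 5 could be tested. Of these 2 were higher (against 5.56% of all genes), *Hp* (haptoglobin, log2 fold change 3.67) and *Wfdc17* (1.99). One, *Lyz1*, was lower (against 7.77%), a call lost without the 6 cells as given above. *Slpi*, a secreted protease inhibitor, had 13794, 30525 and 42205 CPM against 79.3, 15.7 and 23.3, and did not pass (log2 fold change 9.98 ± 1.81, adjusted p = 0.143), but it did without the 6 cells. Of 11 complement genes 6 were higher (against 5.56% of all genes) and 0 lower; *C4b* reached 519, 1037 and 981 CPM against 65.4, 109.6 and 56.9, and *Cfb* and *Cfp* (properdin) also rose. *C1qb* and *C1qc*, which macrophages of most tissues make, did not reach 2-fold (log2 fold changes 0.32 and 0.62). Among 11 genes of apoptotic cell uptake, 5 were higher (against 5.56% of all genes) and 4 lower (against 7.77%). The higher genes were *Timd4*, *Pros1*, *Mfge8*, *Msr1* and *Cd5l*. *Axl*, a receptor of that pathway, had 0 UMIs and was at least 16.4-fold lower, and *Gas6*, its ligand, *Stab1* and *Cd163* were lower.

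Of 11 genes of small cavity macrophages and monocyte descendants tested, 0 were higher and 7 were lower (against 7.77% of all genes), with a median log2 fold change of −4.56, or −3.23 with the genes at 0 set to the floor. *Ccr2*, the monocyte chemokine receptor, was at 54.0, 0 and 0 CPM against 432, 410.3 and 413. *Cd226* had 0 UMIs and was at least 29.2-fold lower, and *Ly6c2* also had 0. *Irf4* had 2 UMIs in the 72 cells, a ratio of 11.8-fold (counting interval 3.24 to 98.1). *Il1b*, *Fcgr4*, *Mrc1* and *Retnla* did not pass. *Mrc1*, the mannose receptor, and *Retnla* had log2 fold changes of −4.56 and −5.66, and 1 KO HFD cell held 370 of that library's 371 *Retnla* UMIs. *Mrc1* had a log2 fold change of −6.98 without the 6 cells. Those cells were picked partly for *Retnla* and other genes of other macrophages, so neither *Mrc1* nor *Retnla* has a test there. Of 4 genes of alternative activation tested, 1 was lower (against 7.77% of all genes), *Il4ra*, the interleukin 4 receptor chain, and 0 were higher (against 5.56%).

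MHC class II was close to absent from most of the cells. *H2-Aa*, the α chain of I-A, was at 1177 CPM in WT CD, 15.4 in WT HFD and 136 in KO HFD, and at 5830.4, 5373 and 4866 CPM in other macrophages. Its 109 UMIs in WT CD came from 1 of the 7 cells. Of 7 genes, 0 were higher (against 5.56% of all genes) and 3 were lower (against 7.77%), *H2-DMa*, *H2-DMb1* and the transactivator *Ciita*. *H2-Aa*, *H2-Ab1*, *H2-Eb1* and *Cd74* had adjusted p values from 0.347 to 0.374. The 6 cells described above were picked partly for *H2-Ab1*, so values of these genes without them carry no test.

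Of 12 listed genes of macrophages that reside in connective tissue, 7 were lower (against 7.77% of all genes) and 2 higher (against 5.56%). *Folr2*, a folate receptor, was at 0, 0 and 4.69 CPM, a single UMI, against 149.97, 309 and 206, which is 244-fold lower (counting interval 43.7 to 9627). *Cd163*, the haemoglobin scavenger receptor, had 1 UMI too and was 148-fold lower (26.5 to 5841). *Cbr2*, *Gas6*, *Stab1* and the factor *Maf* were also lower. *Pf4*, platelet factor 4, went the other way, at 4666, 3350.1 and 4532 CPM against 948, 2151 and 1381 (log2 fold change 1.70 ± 0.21), and so did *Fcna*, ficolin A. *Lyve1*, a hyaluronan receptor, was at 16.6 against 145 CPM and did not pass (−2.78, adjusted p = 0.603). Without the 6 cells the list's median log2 fold change was −6.97 instead of −4.18. Those cells were picked for genes typical of lymphatic cells and other macrophages, so the lower levels of *Lyve1* and *Mrc1* without them carry no test. *Timd4*, which the *Folr2 Cd163* macrophages also carry, was at 156 CPM here and 69.1 CPM in those 277 cells.

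Lipid-associated macrophage genes, which mark lipid-laden macrophages of fat tissue in obesity, were higher in 3 of 10 cases (against 5.56% of all genes) and lower in 4 (against 7.77%). *Fabp4*, a fatty acid binding protein, was at 1102, 1709.8 and 1276 CPM against 63.3, 137 and 75.6 (log2 fold change 4.09 ± 0.25), and *Cd9* and *Fabp5* were higher. *Trem2*, the lipid receptor that defines such cells, was at 86.4, 11.6 and 9.38 CPM against 88.4, 179 and 199 (−2.74 ± 0.39). *Lpl*, *Lgals3* and *Cd63* were lower, and *Gpnmb* had 0 UMIs in the 72 cells. *Spp1*, *Plin2* and *Cd36* did not pass.

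Among 14 transcription factors tested, 3 were higher (against 5.56% of all genes), *Gata6*, *Cebpb* and *Klf2*. Lower were 4 (against 7.77%), *Maf*, *Irf4*, *Nr1h3* and *Pparg*. *Irf8* did not pass (log2 fold change −0.73), and its value of −2.03 without the 6 cells carries no test. *Cebpb* was at 1782, 2482 and 2214 CPM against 1018, 1122 and 1133 (log2 fold change 1.13 ± 0.22). *Spi1*, which encodes PU.1 of all myeloid cells, was at 257 against 326 CPM and did not pass. *Pparg* had 0 UMIs in the 72 cells.

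Of 18 chemokines and receptors tested, 5 were higher (against 5.56% of all genes), 7 were lower (against 7.77%) and 6 did not pass. The neutrophil attractants *Cxcl1* and *Cxcl2* were higher (log2 fold changes 3.18 ± 0.26 and 1.96 ± 0.20), and *Cxcl2* reached 12454, 26833 and 14825 CPM against 3990.1, 5215 and 5507. *Ccl8* and *Ccl12*, attractants of monocytes, were lower, *Ccl8* with 1 UMI against 257 CPM in other macrophages. *Ccr2*, *Cx3cr1* and *Cxcr4* were lower, and the receptor *Ccr1* was higher. *Cxcl13*, the B cell attractant that cavity macrophages make, had 0 UMIs in the 7 WT CD cells and 1355 and 1867 CPM in WT HFD and KO HFD, where 29 of 51 and 9 of 14 cells had a UMI. It did not pass (adjusted p = 0.542), and 1 KO HFD cell held 70.6% of that library's UMIs. Without the 6 cells 4 of the 18 genes were higher and 10 lower, and *Cxcl10* went from a log2 fold change of 1.01 to 0.16 (adjusted p = 0.844). The lower genes added there carry no test, since the 6 cells were picked partly for genes of other macrophages.

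Of 12 genes that dissociation induces, 0 were higher (against 5.56% of all genes) and 2, *Atf3* and *Hspa1a*, were lower (against 7.77%). Their median log2 fold change was 0.07. Of 7 cell cycle genes 4 were lower (against 7.77% of all genes), with a median log2 fold change of −1.05, among them *Top2a* with 3 UMIs, a ratio of 19.3-fold (counting interval 6.56 to 93.7). *Mki67*, a nuclear protein of dividing cells, had 46 UMIs in the 72 cells and did not pass (42.5 against 51.0 CPM, log2 fold change −0.15 ± 0.33), but had a log2 fold change of 2.87 against macrophage-like clusters, which leave cycling macrophages out and where *Pcna*, another of the lower cycle genes, lost its call (−0.84).

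**Figure D4:**
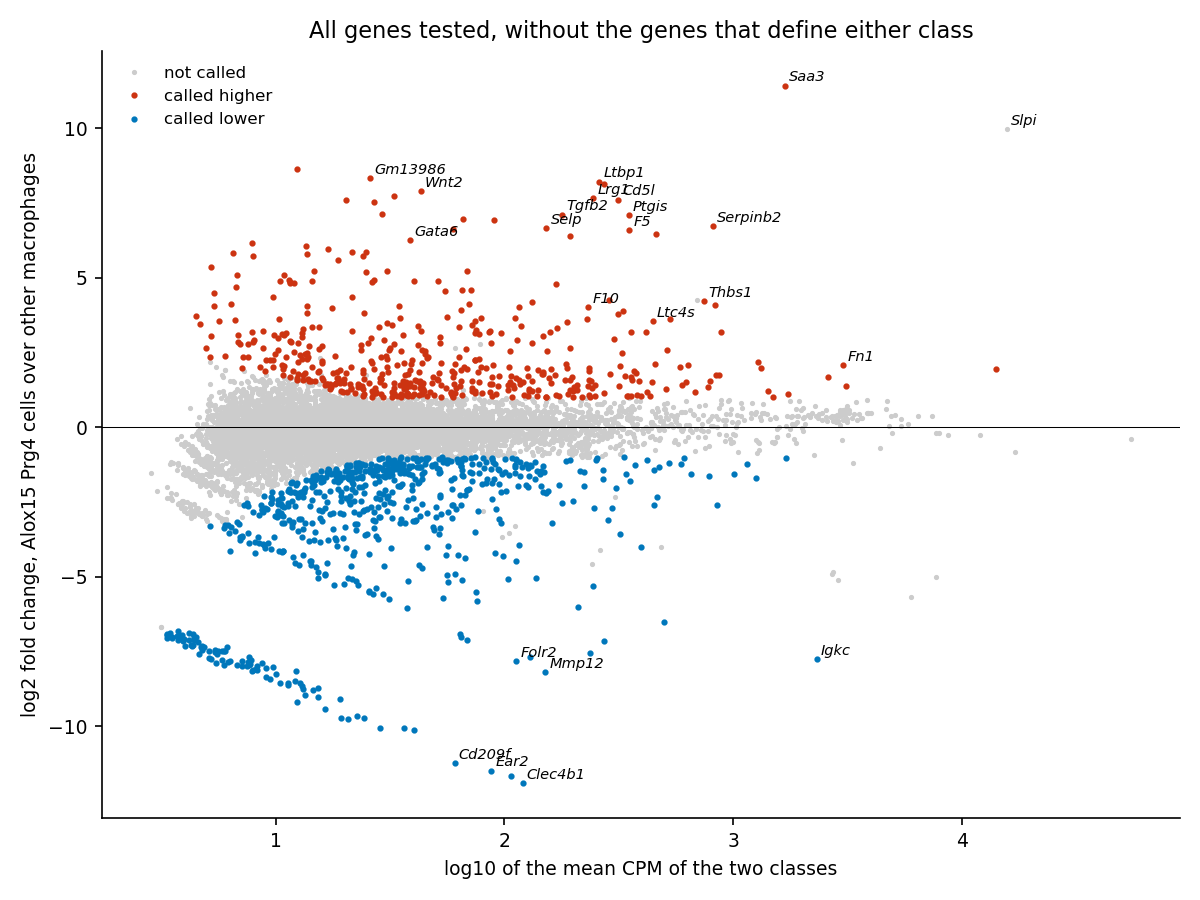
Log2 fold change of the *Alox15 Prg4* cells over other macrophages (vertical axis) against log10 of the mean CPM of the classes (horizontal axis) for the genes tested, without those that set either class. Red and blue points passed the test at 2-fold or more. *Saa3*, *Ltbp1* and *Cd5l* are among the 15 largest rises of at least 50 CPM, and *Slpi* is high without passing. The band of blue points at the bottom left holds genes with 0 UMIs in the 72 cells, whose position depends on the prior count of the fit.

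Ranked by size among the higher genes with at least 50 CPM, the leading 15 included the following genes not yet given. *Prtn3*, proteinase 3 of myeloid granules, was at 313, 552 and 600.5 CPM against 3.48, 0.796 and 1.85 (log2 fold change 8.14 ± 0.34). *Lrg1*, a secreted glycoprotein that modulates TGF-β signalling, was at 54.0, 559 and 413 CPM against 3.13, 2.12 and 0.739 (7.68 ± 0.93, adjusted p = 0.00403). *Wnt2*, a Wnt ligand, had 85.8 CPM against 0.332. *Nt5e*, the ecto-nucleotidase CD73, had 58.1 CPM against 0.332, and *Padi4*, which citrullinates proteins, 131 against 1.16. *Padi4* and *Garnl3* were on the cavity list. *Garnl3* and the poorly described *Gm13986*, *Gm16587* and *Vmn2r26* completed the group; *Gm13986* had 1 UMI in other macrophages.

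The 10 largest falls were *Clec4b1*, *Mucl1*, *Ear2*, *Cd209f*, *Cd226*, *Kcnn4*, *Cd209g*, *Mmp12*, *Folr2* and *Igkc*. The first 7 had 0 UMIs in the 72 cells. *Clec4b1*, *Cd226* and *Mmp12* were among the top genes of the dendritic cell-like cluster, which held 206 of the other macrophages. *Folr2* was a top gene of the largest macrophage-like cluster. Of the 25 rises and falls named by size, 6 lost their call with macrophage-like clusters as the comparison. *Clec4b1*, a C-type lectin, was at 227, 206 and 271 CPM in other macrophages and at least 86.8-fold lower, and *Ear2*, an eosinophil-associated ribonuclease, at least 63.3-fold lower. *Mmp12*, macrophage elastase, had 1 UMI and was 326-fold lower (counting interval 58.4 to 12869). *Igkc*, an antibody light chain that macrophages do not make, was at 43.2, 3.86 and 4.69 CPM here and at 16628, 259 and 1279 in other macrophages. B cells, as counted above, were also most numerous in WT CD, but had 4.32% in WT HFD and 2.11% in KO HFD, the opposite order. The B cell-like cluster with *Jchain* and *Igkc* among its top genes had 101, 7 and 11 cells. The part of B cells in this result was not tested.

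Between libraries the *Alox15 Prg4* cells were alike for most genes, within the limits of 7 and 14 cells. Of 1123 genes with enough counts, 9.26% were at least 2-fold higher in WT HFD than in WT CD and 3.83% at least 2-fold lower, with a median log2 ratio of 0.13. For KO HFD over WT HFD the shares were 2.49% and 2.41% of 1203 genes and the median −0.01. Each ratio compares 1 library with 1 library, and both contrasts use the WT HFD cells.

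From WT CD to WT HFD the largest rises were in *Cxcl13*, *Lrg1*, *Cd68*, the growth factor *Areg* and *Il1b*. *Cxcl13* went from 0 to 1355 CPM, and a count of 0 in WT CD allows up to 39.8 CPM. *Lrg1* went from 54.0 CPM (interval 17.5 to 126) to 559 (508 to 614), with UMIs in 2 of 7 and 51 of 51 cells. Other macrophages had 3.13 and 2.12 CPM of *Lrg1* in these libraries. *Cd68*, a lysosomal protein, went from 43.2 CPM (11.8 to 111) to 269 (233 to 308), and in other macrophages from 233 to 303. Among the largest falls were *H2-Eb1*, *Gatm*, *Cxcl9* and *H2-Ab1*; a single WT CD cell held at least 81.1% of the UMIs of each of these genes in that library, and *Gatm* and *Cxcl9* had no UMI in WT CD once the 6 cells were left out.

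From WT HFD to KO HFD the largest rises were in *Retnla*, *Ccl21a*, *Nts*, *H2-Eb1* and *Hspb1*. *Retnla* went from 5.14 to 1741 CPM and *Ccl21a* from 0 to 558, each through 1 cell as described above. One KO HFD cell held all 23 UMIs of *Nts* in that library, 1 held 93.8% of those of *H2-Eb1* and 1 held 83.6% of those of *Hspb1*. Without the 6 cells *Nts*, *H2-Eb1* and *Hspb1* were at 0, 6.26 and 12.5 CPM in KO HFD, beside 0, 6.43 and 12.9 in WT HFD. The largest falls were in *Hilpda*, a lipid droplet protein, *Eif3j1*, *H2-Q7*, *Ptgs2* and *Pelp1*. *Ptgs2* went from 219.8 CPM (188 to 255) to 32.8 (13.2 to 67.7), with UMIs in 23 of 51 and 3 of 14 cells, while other macrophages had 16.7 and 27.3 CPM. *Pelp1* went from 121 CPM (97.7 to 148) to 28.1 (10.3 to 61.3). *Eif3j1*, a translation factor, fell also in other macrophages, from 117 to 21.6 CPM.

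**Figure D5:**
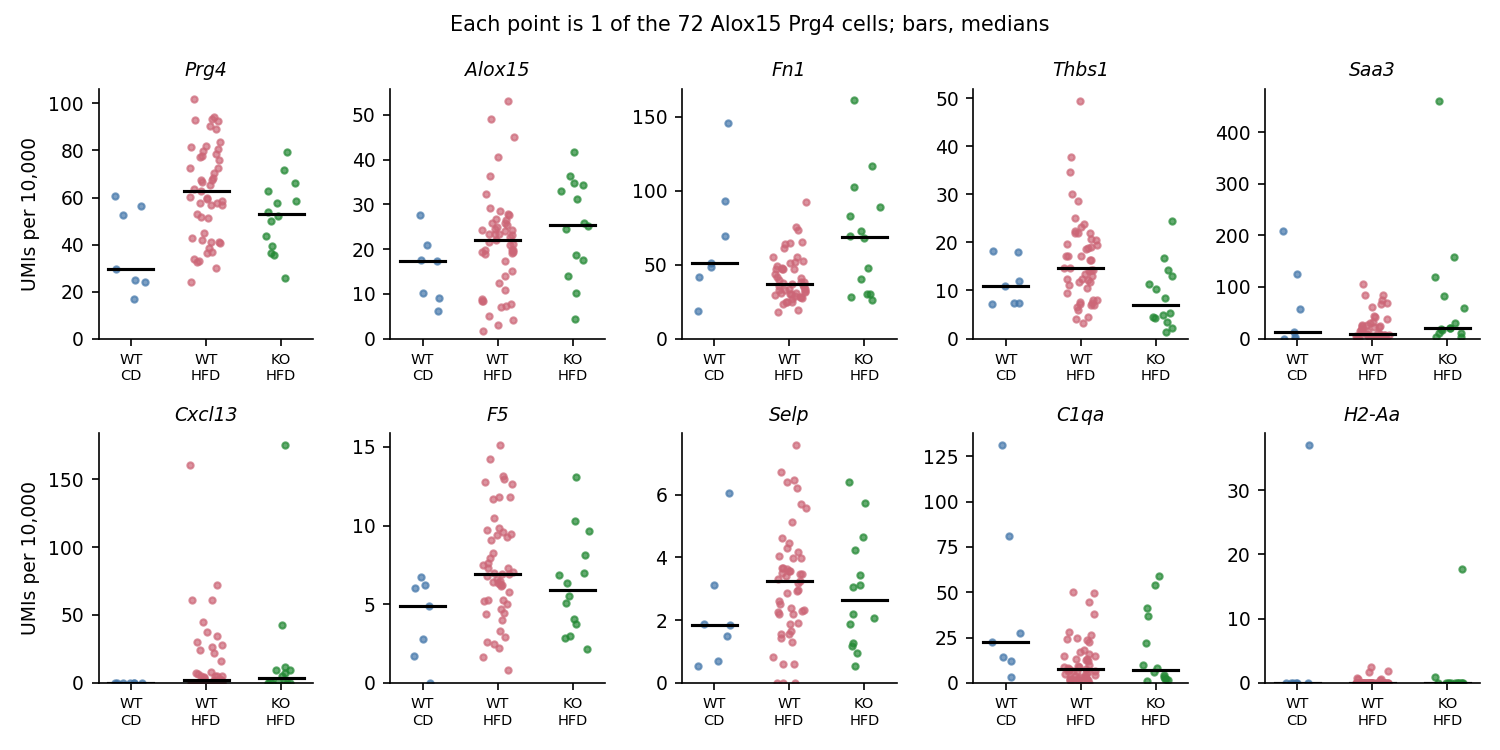
UMIs per 10000 in each of the 72 *Alox15 Prg4* cells by library, 1 panel per gene; points are cells and bars medians. *Fn1* and *Thbs1*, and *Prg4* and *Alox15*, which the rule required, are present in every cell, *Saa3* and *Cxcl13* range from 0 to high values, and *H2-Aa* is high in 1 WT CD and 1 KO HFD cell.

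Within WT HFD, which had the most cells, cell-to-cell spread was measured. All 51 cells were thinned to 10000 UMIs and 582 genes were ranked by variance over mean, whose median was 1.52. *Slpi* varied most (0 to 1339 UMIs, median 192, present in 42 of 51 cells), and *Lyz2*, *Apoe*, *Cxcl2*, *Cxcl13*, *Cxcl1*, *Saa3*, *Ccl24* and *Pf4* were among the 10 most variable. *Apoe*, the lipid carrier, was at 0 in the median cell and at 123 UMIs in the highest. *Fn1* (18 to 85, median 35), *Prg4* (26 to 109, median 64) and *Alox15* (2 to 53, median 22) had variance over mean of 6.63, 6.35 and 5.99, at ranks 32, 39 and 43 of the 582. The rule required *Prg4* and *Alox15* in each cell, and *Fn1* was also present in all 51. *Icam2* (1 to 19, median 8) and *F5* (1 to 15, median 7) had variance over mean of 2.20 and 1.80, also above the median.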

How the data were processed

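The authors pooled costal diaphragm cells of 2 mice per group into 1 10x 3′ v3.1 library and deposited filtered UMI count matrices of 32285 genes (Cell Ranger 6.1.1, build mm10, per the submitters' notes). The deposited counts were used as they are; no barcode was removed in the main analysis, and doublets were called with Scrublet only as an alternative. Shares have Clopper-Pearson and CPM exact Poisson 95% intervals. Clusters came from scanpy 1.11.5 (2000 variable genes, 30 components, 15 neighbours, resolution 1) and were named from marker lists.

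Counts summed per library and class were tested with edgeR 4.0.16 (TMM, filterByExpr, robust glmQLFit, library as block), with Benjamini-Hochberg adjustment over all genes. The 3 libraries are the only replicates, each from pooled mice. On simulated counts of 8550 genes for this comparison, 90% of genes at log2 1.5, 100% at log2 3, 70% at log2 −1.5 and 98% at log2 −3 were recovered. Changes were set only in genes above a minimum expected count in the *Alox15 Prg4* cells, with a common dispersion and no library effect. Recovery required the adjusted p and the direction but not the 2-fold limit. These rates therefore do not cover genes with few UMIs or genes held by 1 cell. Summed depth was 92578, 777886 and 213152 UMIs in the *Alox15 Prg4* cells of WT CD, WT HFD and KO HFD, so the WT CD values are the least precise, and intervals and floors of 3 UMIs cover counting error only. The members and lists were chosen with earlier results of these data known. Named genes were the rule genes and markers, the listed genes, the 15 largest rises and 10 largest falls of at least 50 CPM, and the 5 largest rises and falls between libraries among genes with at least 100 CPM and 20 UMIs. Alternatives were another tool (DESeq2 1.42.0), scalings, filters, comparison cells and cell limits, and leaving out each library. Genes that share reads with close copies (*Saa3* with *Saa1* and *Saa2*, *Lyz1* with *Lyz2*, *Clec4b1*, *Cd209f* and *Cd209g*, *H2-Q7*, *Hspa1a* with *Hspa1b*) are uncertain where counting could split them. RefSeq promoters on chromosome 18 were not used. All 284 listed entries matched the deposited gene names. A few named genes are not reported here, although counts over their lists include them.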

Additional observations from a re-analysis of the deposited data

Results flagged for a closer look

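For 16 named genes the log2 ratio of the *Alox15 Prg4* cells over other macrophages of the same library was positive in 1 library and negative in another, beyond the counting error of each. With 1 library per group the difference between libraries was not tested. Highest in WT CD were *Gatm* (3.78, against −3.69 in WT HFD), *Hilpda* (2.96, against −2.08 in KO HFD), *Spp1* (2.79), *Cxcl9* (2.45), *Irf8* (1.95), *C1qa* (0.81), *Plin2* (0.74), *Cd36* (0.69) and *C1qb* (0.38). *Spp1* had 4 UMIs in 1 WT CD cell, and 98% of the *Gatm* UMIs there were in 1 cell. One WT CD cell also held 60% of that library's *Hilpda* UMIs, 81.1% of those of *Cxcl9* and 70% of those of *Irf8*. *Hilpda*, without the 6 cells described in the report, was at 24.1 CPM in WT CD instead of 216, below the 27.8 CPM of other macrophages, *Cxcl9* was at 0, and *Irf8* was at 96.4 CPM instead of 216, against 56.0 in other macrophages. Highest in WT HFD were *Areg* (1.97) and *Il1b* (0.82), both lowest in WT CD, where each had 1 UMI. In KO HFD the highest were *Ccl21a* (9.56), *Hspb1* (2.70), *C3* (1.92), *Jun* (0.77) and *Fos* (0.20). One KO HFD cell held all *Ccl21a* UMIs of that library, and 1 held 83.6% of those of *Hspb1*. Without the 6 cells *Hspb1* was at 12.5 CPM there, below the 39.7 CPM of other macrophages.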

How the results depend on the processing

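The shares of barcodes kept their order in the 3 libraries and stayed within their intervals under all 8 alternative cell limits tried, without the 6 cells and with no limit on *Prg4*. The report counted 469 higher and 656 lower genes. With at least 10 counts in each of the 6 sums, 1041 genes could be tested, and 105 were higher and 61 lower. DESeq2 on the same sums called 311 lower and 338 higher. Leaving out 1 library gave from 264 to 574 higher and from 293 to 769 lower genes; the lowest counts were without WT HFD and the highest without WT CD, and without KO HFD 338 were higher and 408 lower. Without the library block 534 were higher and 668 lower. Without the 6 cells 471 were higher and 732 lower, of which 408 and 597 were shared with the report. No paired analysis was possible because the labels give no replicate numbers across groups; the pairing used is that of 2 cell classes in 1 library. Directions turned for some genes that had not passed. *Mki67* had a log2 fold change of 2.87 when the other macrophages were taken from macrophage-like clusters, which leave cycling macrophages out. Without the 6 cells *Gatm* went from a log2 fold change of 0.29 to −2.50 and *Cxcl9* from 0.17 to −3.13. Of the 25 genes named by size, 1 could be tested with at least 10 counts in each of the 6 sums and 24 without WT HFD. Those tested kept their direction under each alternative, and at most 6 lost their call under any 1, with macrophage-like clusters as the comparison. Depth limits the WT CD values most, with 7 cells and 92578 UMIs, and the WT CD and KO HFD levels of genes held by 1 cell follow that cell.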
